A study of Proteus anguinus with 14 samples.

Results

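The genes described here encode the proteins that join neighbouring animal cells in the olm (Proteus anguinus), a cave-dwelling salamander: claudins and other tight junction proteins, cadherins, protocadherins, desmosome proteins and gap junction connexins. They were chosen by name, as rows of the deposited expression table annotated with a claudin (CLDN), occludin (OCLN), zonula occludens scaffold (TJP), cadherin (CDH, without CDH5), protocadherin (PCDH), desmoglein (DSG), desmocollin (DSC), plakophilin (PKP), plakoglobin (JUP) or connexin (GJ) symbol. In all, 84 of 18924 assembled genes carried such a name. They stood for 59 of 7754 distinct symbols, and where several rows shared a symbol, the row with the highest mean stood for it unless another is named. Of the 59 symbols, 49 had a TPM (expression per gene length, scaled to the same total in each sample) of at least 1 in at least 2 samples and entered the tests: 8 of 9 claudins, 3 of 4 other tight junction genes, 13 of 15 cadherins, 7 of 7 desmosome genes, 6 of 8 connexins and 12 of 16 protocadherins.

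Bulk RNA-seq was performed on organs of 3 olms found flushed out of caves, named p4, p5 and p6, that had served as non-infected controls of an infection experiment. All animals had been kept singly in the dark, and no sample carried a mutation or a treatment. Brain was measured in p4 and p6, gut in p4 and p5, heart in p4 and p6, liver and lung in p4, p5 and p6, and skin in p4 and p6, giving 14 samples, and organs from the same animal are not independent of each other. Organs were taken from the sample titles, since the tissue fields swap heart for gut and lung for liver in both directions, and the study's own sample list gives p6 for the second gut and p5 for the second heart sample. Most listed heart and lung markers with a row went with the titles. NKX2-5, a cardiac transcription factor, stood at 333 and 229 in heart and at 1.96 or less elsewhere. SFTPB, a surfactant protein, stood at 29.8, 41.5 and 39.5 in lung and at 2.84 or less elsewhere. TNNT2, TNNI3 and MYL7 were also highest in heart, and NKX2-1 and SLC34A2 in lung. RYR2, at 0.313 and 0.252 in heart, was higher in skin. ABCA3, on the lung list, was highest in heart at 17.9 and 6.02, and NAPSA was at 0 in lung. All values are normalized TPM, that is TPM divided by a factor per sample that sets the median gene level, since the deposited TPM of 1000000 per sample were led by a single gene taking 41.5 to 53.4% of the total in lung. Without these factors, the median gene would lie 1.03 higher on the log2 scale in brain relative to the other samples, and that of lung would be shifted by -0.61.

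Tight junctions seal the space between epithelial or endothelial cells, and the mix of claudins in the seal sets which ions and solutes pass. Classical cadherins hold cells together at adherens junctions through catenins bound to actin, desmosomes anchor keratin or desmin filaments in tissues under mechanical load, and connexins form channels between the cytoplasms of adjoining cells. Protocadherins are cadherin relatives best known from neurons, where clustered alpha and gamma isoforms give single cells a surface identity. The roles named below are those known from human and mouse, since the symbols were assigned by orthology.

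Each class had its own order of organs. The summed claudin level was 1216.5 and 1241 in gut, 947 and 328 in skin, 580, 319 and 248 in liver, 154, 177 and 174 in lung, 189 and 199 in brain and 86.8 and 63.8 in heart. Desmosome genes summed to 877 and 829 in gut, and to 95.1, 130.3 and 114 in lung, below every other sample. Protocadherins summed to 763 and 495 in brain, against 57.4 to 190.5 in the other organs, and connexins to 196 and 75.8 in skin, against 9.61 to 29.2 elsewhere. Gut led the claudin and desmosome sums, brain the protocadherin sum and skin the connexin sum, each without overlap with the samples of the other organs. With every row of the 84 counted, the claudin sum of skin was 1282 and 464 and overlapped that of gut, 1223 and 1246, through a second row named CLDN1 that is described below. Organs are mixtures of cells, and fewer cells of a type cannot be told apart from less RNA per cell.

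**Figure D1:**
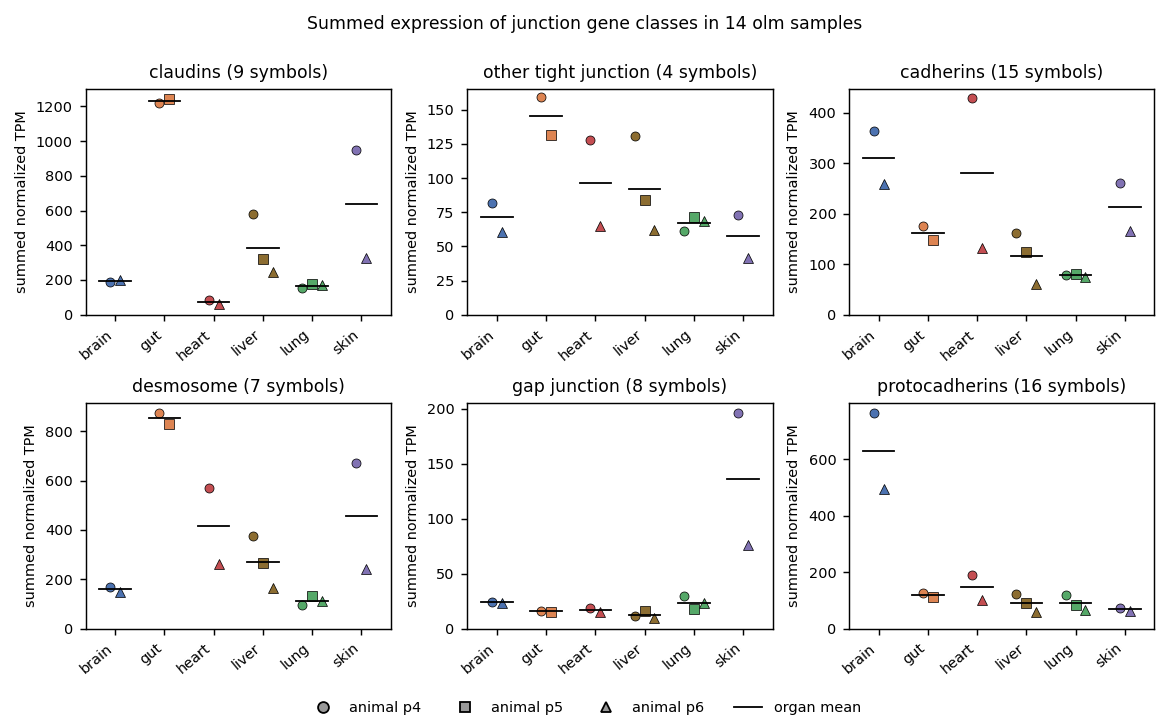
Summed normalized TPM (linear axes from 0) of each junction class, 1 point per sample, by organ, with the point shape giving the animal and the bar the organ mean. Claudin and desmosome sums were highest in gut, where claudins reached 1216.5 and 1241, protocadherins were highest in brain at 763 and 495, and connexins in skin at 196 and 75.8.

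By organ mean, 21 of the 49 tested members were highest in brain, 10 in skin, 8 in gut, 5 in heart, 4 in liver and 1 in lung. The same order was not counted over all genes, so it cannot be read as particular to these members. Brain samples also had the most genes at a TPM of 1 or more, 15252 and 15518, against 9351 to 13413 in the other samples. With an F-test among the 6 organs (limma, adjusted p under 0.05), 32 of the 49 members differed, or 65.3%, while 34.2% of all 16317 genes tested did. These were 10 of 13 cadherins, 9 of 12 protocadherins, 5 of 8 claudins, 3 of 7 desmosome genes, 3 of 6 connexins and 2 of 3 other tight junction genes. The filter on low values was passed by 5 of the 49 members in the samples of a single organ only, which were CDH15, CDH22, CDH4, PCDHA1 and PCDHAC2, so that a difference for those 5 was built into their selection. A further 23 members had at least 1 TPM in every sample, among them CDH1, CLDN1, CLDN7, OCLN, JUP, DSC2, PKP2 and TJP1.

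**Figure D2:**
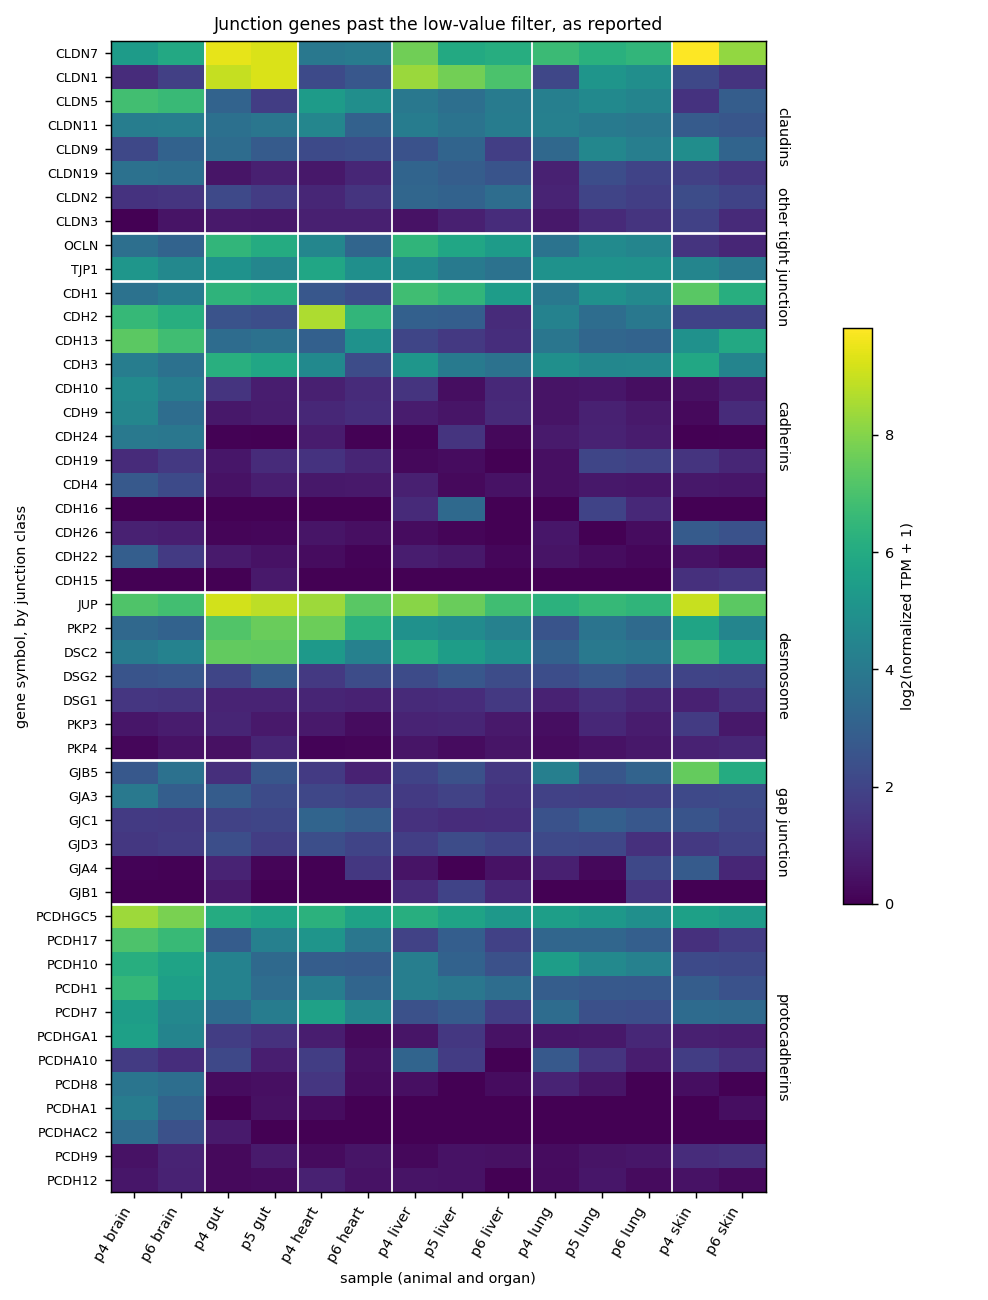
Heatmap of the junction genes past the filter that are reported here, as log2(normalized TPM + 1) by the colour scale, with genes as rows grouped by class and the 14 samples as columns grouped by organ. CLDN7 and JUP are bright in gut and skin, CDH2 in heart at 386 and 86.9, and most protocadherin rows are brightest in the 2 brain samples.

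Brain carried the largest set of junction genes above the rest of the body, made up of neuronal-type cadherins and protocadherins and a small number of claudins and connexins. Compared with all other samples as 1 group, 17 of the 49 members were higher in brain and 0 lower, where 11.2% of all genes were higher and 3.36% lower (limma, adjusted p under 0.05 and a fold change above 2). They were 8 of 12 protocadherins, 6 of 13 cadherins, 2 of 8 claudins, 1 of 6 connexins, and 0 of 7 desmosome and 0 of 3 other tight junction genes. Among them, CDH22, CDH4, PCDHA1 and PCDHAC2 had passed the filter through brain only. Their part in these counts, and in the medians and the separation of samples given next, was built into their selection. The median log2 fold change was 2.58 over the 12 protocadherins, 1.89 over the 13 cadherins and -0.61 over the 8 claudins, against 0.04 over all genes tested. For all 17 members both brain samples lay above each of the 12 other samples. At an unadjusted p under 0.05, 18 members were higher in brain, and CLDN3 was lower as the single such member. The share of all genes at an unadjusted p was not counted, here or below. In a model of the 6 organ means, in which each organ is set against the mean of the other 5, 19 members were higher in brain, where 13.7% of all genes were, and 5 were lower, where 7.64% were. The lower ones were CLDN1, CLDN7, CDH1, DSC2 and PKP2, all high in gut. In this model a member high in 1 organ raises the mean that the other organs are set against, which bears on the lower calls here and below.

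The largest log2 fold change of the brain set belonged to a clustered protocadherin. PCDHGA1, a gamma protocadherin, stood at 47.0 and 20.4 in p4 and p6 brain, against 0.204 to 2.45 (median 0.751) in the 12 other samples. The log2 fold change was 4.10 ± 0.38 (standard error, on the log2(normalized TPM + 1) scale used throughout, adjusted p = 1.81e-06, limma). PCDHA1, an alpha protocadherin, reached 16.2 and 7.69 in brain and was listed at 0 in 9 of the 12 other samples, the remaining 3 lying at 0.267 to 0.344, with a log2 fold change of 3.52 ± 0.21 (adjusted p = 2.05e-08, limma). PCDHAC2, the alpha isoform known from serotonergic neurons, stood at 10.5 and 4.35 in brain and was listed at 0 in every other sample but p4 gut, where it was 0.639. PCDHA1 and PCDHAC2 were at or near 0 outside the brain and passed the filter through brain only. PCDHA10, the other alpha gene tested, did not share this, at 2.30 and 1.41 in brain and 0 to 7.98 elsewhere, highest in p4 liver and p4 lung. PCDHGC5, a gamma isoform of the C type, had the highest level of any protocadherin, 333 and 231 in brain and 29.0 to 78.7 (median 48.1) elsewhere, with a log2 fold change of 2.51 ± 0.33 (adjusted p = 7.28e-05, limma). It was at the same time the leading protocadherin of every sample, with 36.5 to 63.8% of the class sum over 1 row per symbol.

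Several rows of the table shared these symbols. PCDHGA1 was carried by 11 assembled genes, of which 9 entered the test and 8 were higher in brain, and PCDHGC5 by 5, of which 4 entered and 3 were higher. Of these, 3 of the 8 and 2 of the 3 had passed the filter through the brain samples only, so that their difference was built into their selection. The rows that were not called were highest elsewhere, the second PCDHGC5 row in heart at 7.21 and 3.09 and the ninth PCDHGA1 row in p5 liver at 5.14. Over all 36 protocadherin rows, 26 were tested and 20 were higher in brain, 10 of them past the filter through brain only. Gamma and alpha protocadherin isoforms share their constant exons, and reads from a shared part could have been placed on any of these rows, so that the level of a single row is uncertain. Summed over all rows, protocadherins reached 931 and 574 in brain, against 62.3 to 204 in the other samples.

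The brain set also held non-clustered protocadherins. PCDH17, which acts on axon growth and synapses, stood at 135 and 97.1 in brain and at 1.56 to 33.8 (median 6.73) elsewhere, highest in p4 heart, with a log2 fold change of 3.90 ± 0.75 (adjusted p = 0.00206, limma). PCDH10, a protocadherin of developing brain circuits, was 70.1 and 51.4 in brain, against 3.42 to 43.6 (median 8.31) in the other samples, led by p4 and p5 lung with 43.6 and 23.7, then p4 gut with 19.2 and p6 lung with 19.0 (log2 fold change 2.44 ± 0.73, adjusted p = 0.0316, limma). PCDH1, which is also found in airway epithelium, stood at 91.8 and 44.9 in brain, against 4.57 to 19.2 elsewhere (2.65 ± 0.48, adjusted p = 0.00132, limma), and its 3 lung values were 6.34, 5.66 and 5.57. PCDH8 was called in brain as well. PCDH7 was not, and its levels of 43.0 and 23.3 in brain overlapped those of 48.1 and 21.4 in heart.

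Of the cadherins in the brain set, CDH13 was the most abundant. This cadherin is tied to the membrane by a lipid anchor and has no cytoplasmic part, and it stood at 163 and 110 in brain, against 1.42 to 60.1 (median 9.29) elsewhere, with p6 and p4 skin at 60.1 and 30.1 and p6 heart at 31.4. Its log2 fold change was 3.64 ± 0.93 (adjusted p = 0.0138, limma). CDH10, a type II cadherin of neurons, was 25.2 and 16.2 in brain and 0.273 to 1.81 (median 0.722) elsewhere (3.58 ± 0.32, adjusted p = 1.23e-06, limma). The other members of this set, named here to complete the count, were the type II cadherins CDH9, CDH22 and CDH24 and the retinal cadherin CDH4, with brain levels of 2.14 to 21.4 and none above 1.79 in any other sample. CDH2, the N-cadherin of neurons and heart muscle, was not called against all other samples, at 94.6 and 69.4 in brain and up to 386 in heart.

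**Figure D3:**
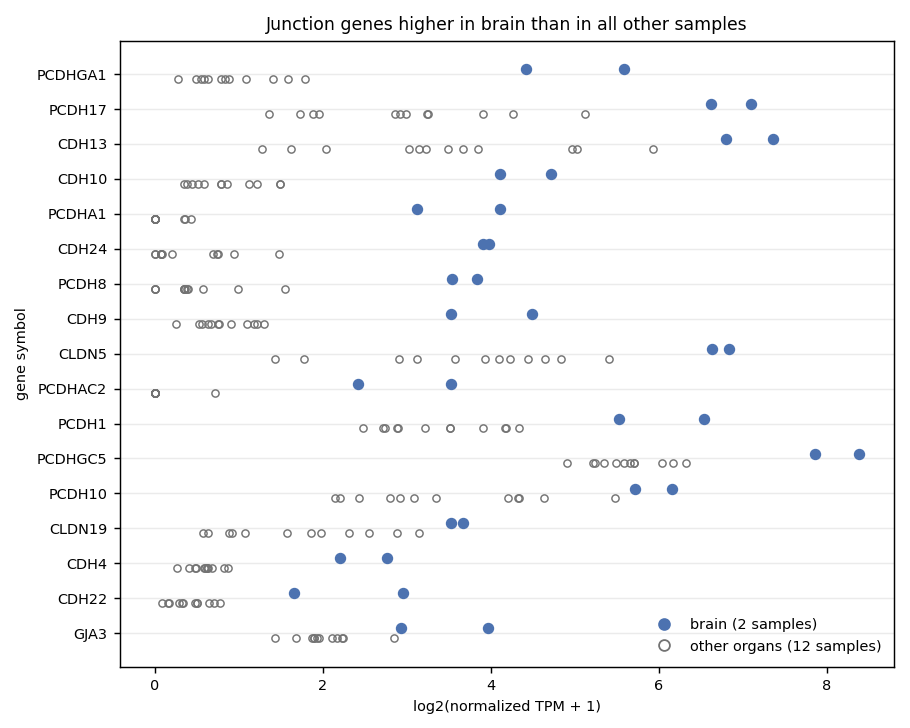
Levels of the 17 junction genes higher in brain, as log2(normalized TPM + 1) on the horizontal axis, ordered by log2 fold change with the largest at the top. Filled points are the 2 brain samples and open circles the 12 samples of the other organs, and in every row both filled points lie to the right of all open circles. CDH22, CDH4, PCDHA1 and PCDHAC2 had passed the filter through brain only, so that their separation was built into their selection.

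CLDN5, the main claudin of the blood-brain barrier endothelium, stood at 113 and 98.4 in brain, against 1.69 to 41.2 (median 15.2) in the other samples, with 41.2 and 27.5 in heart and the lowest values in skin and p5 gut. Its log2 fold change was 3.04 ± 0.81 (adjusted p = 0.0171, limma). Over 1 row per symbol, it made up 59.9 and 49.5% of the claudin sum in brain. CDH5, the endothelial cadherin, ran the other way, at 1.58 and 1.15 in brain and 15.8, 13.9 and 15.9 in lung. The 6 of 11 endothelial markers that matched a row summed to 54.0 and 27.2 in brain and to 11.1 to 33.0 elsewhere, ROBO4 giving 39.1 and 15.2 of the brain sums and KDR and TEK being at 0 in some samples outside the brain, and their part in the CLDN5 difference was not tested. CLDN19, a claudin of kidney and of Schwann cells, was 11.7 and 10.5 in brain and 0.488 to 7.86 elsewhere, next highest in liver (1.90 ± 0.61, adjusted p = 0.0449, limma). CLDN11, the claudin of oligodendrocyte myelin, was 16.9 and 17.2 in brain, inside the range of 5.17 to 22.0 of the other samples. GJA3, a connexin best known from the lens, was 14.7 and 6.60 in brain, against 1.69 to 6.19 elsewhere (1.43 ± 0.33, adjusted p = 0.0067, limma).

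The brain set depended on both brain samples. Fewer members were called without p4 brain or without p6 brain, with 45 members tested each time, and fewer of all genes were called as well. CDH10, CDH24, CDH9, PCDH8, PCDHGA1 and PCDHGC5 kept their call in both. CDH22, CDH4, PCDHA1 and PCDHAC2 then fell below the filter and were not tested, and the lone brain sample was assumed to vary like the samples of the other organs. CDH13, CLDN5, CLDN19 and PCDH10 were tested and lost in both. PCDH17, PCDH1 and GJA3 were lost without p4 brain and kept without p6 brain, and GJA3 was also lost with a pseudocount of 5. The p6 brain sample held skeletal muscle markers (6 of 13 matched, none at 0) with a sum of 18171, against 1548 in p4 brain, and their part in these values was not tested. CLDN19 passed in 10 of 26 alternatives. Its call was also lost with the animal as a block, a pseudocount of 0.1, no filter or quantile normalization. The same held without p5 gut, p4 or p6 lung, or either heart or skin sample. On the deposited TPM, 24 of 49 members were higher in brain, including the 17, where 6579 of all 16317 genes were higher. Lower were 0 members, where 27 of all genes were. Over all genes 99.6% of the calls were then higher, against 76.8% with normalized TPM.

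With 1 row per symbol, CLDN7 led the claudins of skin and lung, and CLDN7 and CLDN1 together led those of gut and liver. CLDN7, a claudin of the lateral membrane of many epithelia, stood at 694 and 605.5 in gut, 899.5 and 300.5 in skin, 205, 62.0 and 67.5 in liver, 103, 74.3 and 86.8 in lung, 40.6 and 60.4 in brain and 14.1 and 15.8 in heart. Over 1 row per symbol, it made up 95.0 and 91.6% of the claudin sum in skin and 57.0 and 48.8% in gut. That sum, 947 and 328 in skin, leaves out the second CLDN1 row described below. With every row counted, the claudin sum of skin was 1282 and 464, so that the share of CLDN7 in skin was smaller. Lung was lower than skin by a log2 fold change of -2.56 ± 0.52 (adjusted p = 0.00696, limma) and lower than gut by -2.88 ± 0.52 (adjusted p = 0.00403, limma). Gut and skin did not differ past the threshold in CLDN7, with overlapping values.

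The name CLDN1, the barrier claudin of mammalian epidermis, was carried by 2 rows of the table that were high in different organs. The first row, with the higher mean, was 489 and 609 in gut, 323.5, 211 and 129 in liver and 33.9 or less in every other sample, with 3.37 and 1.78 in skin. The second row, singled out after its values were seen, was 335 and 136 in skin and 4.02 to 29.1 (median 6.27) in the 12 other samples, which do not overlap with skin (log2 fold change 4.57 ± 0.63, adjusted p = 0.000482, limma, lost without p4 skin). The ratio of the first row to the second, which does not depend on the scaling, was 75.4 and 120.3 in gut, 15.0, 42.6 and 26.9 in liver, and 0.0101 and 0.0131 in skin. Gut exceeded skin in the first row by 7.29 ± 0.80 on the log2 scale (adjusted p = 8.02e-05, limma), and fell below it in the second by 4.99 ± 0.61 (adjusted p = 0.000183, limma). Summed over both rows, CLDN1 no longer differed between gut and skin past the threshold. Whether the 2 rows are 2 genes or parts of 1 was not tested.

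In lung the first CLDN1 row was 3.23 in p4, 33.9 in p5 and 27.7 in p6. The hepatocyte markers (9 of 11 matched, none at 0 in lung) summed to 432 in p4 lung, 21171 in p5 lung and 15778 in p6 lung, so the CLDN1 level was high in the same 2 lung samples. CDH16, a cadherin of kidney named after its values were seen, was listed at 0 in p4 lung and stood at 2.98 and 1.21 in p5 and p6 lung, with 1.25, 9.22 and 0 in p4, p5 and p6 liver. Skeletal muscle markers (6 of 13 matched, MYH2, RYR1 and MYOG at 0 in p4 lung) summed to 49.5, 672 and 410.5 in p4, p5 and p6 lung, and leukocyte markers (2 of 10 matched) to 37.8, 160.2 and 134. Red blood cell markers (2 of 9 matched, HBE1 and ALAS2) summed to 1049728, 565722 and 749159 in p4, p5 and p6 lung. In the other organs they reached at most 124221, in p6 heart. The part of all these markers in the lung values, here and in the comparisons below, was not tested.

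OCLN, the transmembrane protein occludin, set skin apart. It stood at 1.76 and 1.10 in p4 and p6 skin, against 7.66 to 87.1 (median 23.2) in the 12 other samples, with 87.1 and 64.3 in gut, 84.3, 55.01 and 40.4 in liver and 12.4, 24.7 and 20.9 in lung. Even brain, at 10.9 and 7.66, and heart, at 21.8 and 8.23, lay above both skin samples. It was the 1 member of 49 lower in skin than in all other samples, where 0.0674% of all genes were lower, with a log2 fold change of -3.51 ± 0.82 (adjusted p = 0.0341, limma). That call was lost with a pseudocount of 5, with the animal as a block and without p4 or p6 skin, p5 lung or p6 liver. Gut exceeded skin by 4.98 ± 0.48 (adjusted p = 3.20e-05) and lung exceeded skin by 3.03 ± 0.44 (adjusted p = 0.000783, both limma), and neither of these was lost under any alternative run. TJP1, a scaffold that binds occludin, did not share the pattern, standing at 21.4 and 14.6 in skin and 11.99 to 54.5 elsewhere. A second TJP1 row, far lower in level, was listed at 0 in both skin samples and in p4 gut. It was 6.84 and 2.28 in brain, where it was called higher, and at most 1.904 in the other samples.

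Skin was higher than all other samples in 3 members, CDH15, CDH26 and GJB5, where 1.94% of all genes were. Of these, CDH15 had passed the filter through skin only. GJB5, a connexin of mammalian epidermis, stood at 179 and 65.0 in skin, against 0.921 to 17.7 (median 4.73) elsewhere, with p4 lung highest among those (log2 fold change 4.36 ± 0.69, adjusted p = 0.00187, limma, lost without p4 skin). It made up 91.2 and 85.7% of the connexin sum in skin. The 5 of 10 epidermal markers that matched a row, none at 0 in skin, summed to 6322 and 2138 in p4 and p6 skin, 159 and 244 in brain and 80.1 or less elsewhere, so that the p4 skin sample was the higher of the 2 in the markers, in GJB5, in CLDN7 and in the second CLDN1 row. CDH26, an epithelial cadherin, was 6.01 and 4.53 in skin and 0.889 or less elsewhere (2.27 ± 0.25, adjusted p = 7.34e-05, limma). A second CDH26 row, with a mean TPM of 1.18 against 1.20, did not share this. It was 2.24 and 1.56 in skin and 0.422 to 1.77 elsewhere, with overlap, and was not called.

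CDH15 is the M-cadherin of muscle satellite cells. It was 1.54 and 1.91 in skin, listed at 0 in 11 of the 12 other samples and 0.576 in p5 gut, just above the low-value filter (1.39 ± 0.18, adjusted p = 0.000214, limma). Since CDH15 passed that filter through skin only, this difference was built into its selection. The summed skeletal muscle markers were 63038 and 68317 in skin, 22829 in p6 heart and 18171 in p6 brain, and CDH15 was listed at 0 in those heart and brain samples. The part of muscle in the skin values was not tested. On the deposited TPM, to which the filter applies, CDH15 was 1.65 and 2.03 in skin, and CDH12, CDH7 and PCDH18, just outside, reached 1 in a single sample each, with 1.06, 1.49 and 1.20. In the model of the 6 organ means 5 members were higher in skin, where 5.23% of all genes were, CDH1 and CLDN7 joining the 3, and 9 were lower, where 2.77% were: OCLN, CLDN1, CLDN5, CLDN11, CDH2, CDH24, PCDH1, PCDH10 and PCDH17. Of the lower ones, CLDN5, CDH24, PCDH1, PCDH10 and PCDH17 are in the brain set. The skin calls against all other samples depended on both skin samples, and fewer were made without p4 or without p6 skin. CDH15 then fell below the filter and was not tested, and the lone skin sample was assumed to vary like the samples of the other organs.

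**Figure D4:**
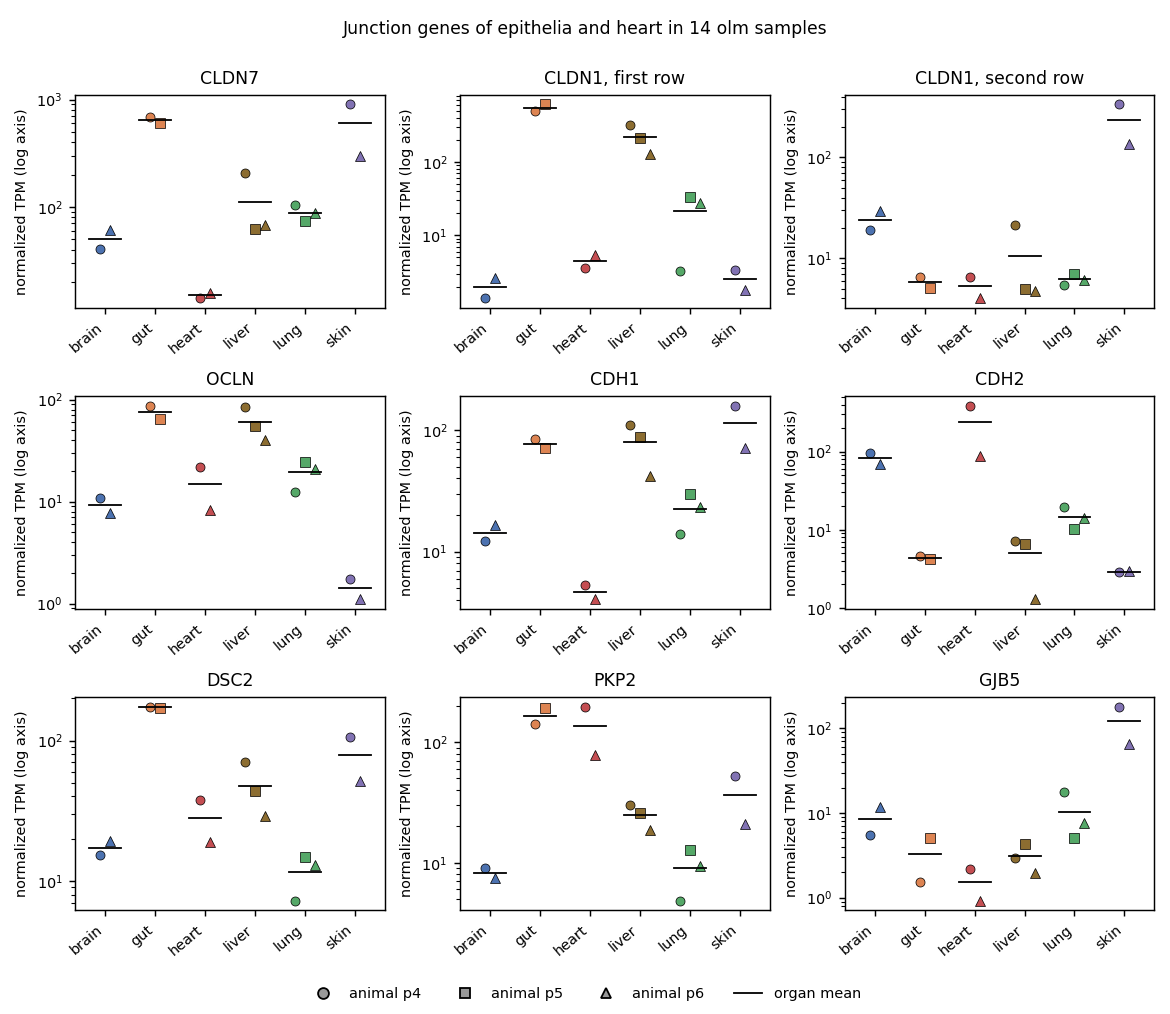
Normalized TPM (log axes) of 9 rows named in the text, 1 point per sample, by organ, with the point shape giving the animal and the bar the organ mean. The first CLDN1 row is highest in gut at 489 and 609 and the second in skin at 335 and 136, OCLN is lowest in skin at 1.76 and 1.10, and CDH2 is highest in heart at 386 and 86.9.

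The classical cadherins divided the organs by the balance of E-cadherin (CDH1), the adhesion molecule of epithelia, and N-cadherin (CDH2). CDH1 stood at 158 and 70.7 in skin, 83.5 and 71.2 in gut, 110.2, 87.2 and 41.9 in liver, 14.1, 29.9 and 23.5 in lung, 12.1 and 16.5 in brain and 5.27 and 4.05 in heart. CDH2 stood at 386 and 86.9 in heart, 94.6 and 69.4 in brain, 19.3, 10.3 and 14.1 in lung and 7.14 or less in gut, liver and skin. The ratio of CDH1 to CDH2, free of any scaling between samples, was 54.7 and 23.9 in skin, 18.0 and 17.0 in gut, 15.4, 13.3 and 32.6 in liver, 0.729, 2.90 and 1.66 in lung, 0.128 and 0.238 in brain and 0.0137 and 0.0466 in heart. Skin, gut and liver were thus at 13.3 or more, lung at 0.729 to 2.90, and brain and heart at 0.238 or less. These sets were drawn at the gaps in this same ratio, so that their lack of overlap is description only. Both genes differed among the organs (CDH1 adjusted p = 0.000139, CDH2 adjusted p = 0.000115, F-test in limma). CDH3, the P-cadherin, was 72.5 and 55.6 in gut and 57.9 and 20.7 in skin, and did not differ among the organs past the threshold.

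In heart, CDH2 and PKP2 were high, which in mammals sit in the intercalated disc, the contact that joins cardiomyocytes. None of the 49 members passed the threshold against all other samples (limma, 0 higher and 0 lower, where 0.723% and 0.0123% of all genes passed). At an unadjusted p under 0.05, 4 were higher and 2 lower, with no share of all genes to set beside these counts. In the model of the 6 organ means, 4 members were higher in heart than in the mean of the other 5 organs, CDH2, PKP2, PCDH7 and GJC1, where 3.49% of all genes were, and 6 were lower, where 2.3% were. CDH2 exceeded that mean by 4.11 ± 0.52 (adjusted p = 0.000521, limma), and both heart values lay above those of every organ but brain. PKP2, the desmosomal plaque protein of cardiac muscle, was 195 and 78.7 in heart, 140 and 191 in gut, 51.9 and 21.1 in skin and 30.02 or less in the other samples (2.25 ± 0.41, adjusted p = 0.00584, limma). GJC1, a connexin of the cardiac conduction system, was 7.98 and 6.46 in heart, against 1.39 to 6.78 elsewhere, overlapping with lung (1.04 ± 0.23, adjusted p = 0.0176, limma). CDH1, CLDN1, CLDN7, CLDN19, GJB5 and PCDHGA1 were the lower ones, of which CLDN19 and PCDHGA1 are in the brain set. The p6 heart sample held the skeletal muscle markers at 22829, against 2372 in p4 heart, and the CDH2, PKP2 and JUP levels were lower in p6 heart than in p4 heart.

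Desmosome genes were led by JUP, the plakoglobin that desmosomes and adherens junctions share, which took 55.2 to 81.7% of the class sum in every sample. JUP stood at 557.5 and 457.5 in gut, 505 and 162.5 in skin, 333 and 158 in heart, 267, 190 and 110 in liver, 138 and 113 in brain and 77.7, 94.3 and 85.1 in lung, where all 3 values lay below every other sample. DSC2, the desmocollin that mammals use most widely, was 174 and 171 in gut, above all other samples, and 7.24, 14.8 and 12.95 in lung, below all. The 3 desmosomal cadherins DSC2, DSG2 and DSG1 had very different levels, DSG2 standing at 2.08 to 6.36 and DSG1 at 0.886 to 2.07 over all samples. The ratio of PKP2 to DSC2 was 5.20 and 4.17 in heart and 1.12 or less in every other sample. PKP3, a plakophilin of epithelia, was 2.30 in p4 skin and 1.12 or less elsewhere.

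For gut, 0 members passed against all other samples (limma, where 1.86% of all genes were higher and 0.0674% lower). At an unadjusted p under 0.05, 7 were higher and 0 lower, again with no share of all genes beside them. In the model of the 6 organ means, 7 were higher in gut, CLDN1, CLDN7, OCLN, CDH1, DSC2, JUP and PKP2, where 5.58% of all genes were. They belong to tight junctions, adherens junctions and desmosomes, and the log2 fold changes were 1.51 for CDH1 to 5.59 for CLDN1. CLDN5, CLDN19, CDH2 and CDH24 were lower, where 3.97% of all genes were. All of these but CDH2 are in the brain set.

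Liver exceeded all other samples in 2 members, CLDN2 and GJB1, where 2.29% of all genes were higher, and 0 members were lower, where 0.0613% were. At an unadjusted p under 0.05, 5 members were higher and 6 lower, with no share of all genes to set beside these counts. CLDN2, which forms a pore for cations and water, was 8.39, 7.46 and 10.4 in liver, against 0.951 to 3.84 (median 2.35) elsewhere, with no overlap (log2 fold change 1.60 ± 0.29, adjusted p = 0.00494, limma). The CLDN2 call was lost without p6 liver, with a pseudocount of 5 and on the deposited TPM. GJB1, the main hepatocyte connexin of mammals, was 1.34, 2.91 and 1.18 in liver, 1.94 in p6 lung and 0.592 in p4 gut, and was listed at 0 in the 9 remaining samples (1.24 ± 0.30, adjusted p = 0.0434, limma). It overlapped with the lung sample, and its call passed in 6 of 25 alternatives. The call was lost with a pseudocount of 0.1 or 5, on the deposited TPM, with quantile normalization and with the animal as a block. The same held without either brain, heart or skin sample, any liver sample, p5 gut, p4 lung or p5 lung. In the model of the 6 organ means, CLDN1, OCLN, CDH1 and CLDN19 were higher in liver too, 6 in all where 4.6% of all genes were, and 7 were lower, where 4.03% were, among them CDH13, CDH2, CDH19, PCDH17, PCDH7 and GJC1. Of the lower ones, CDH13 and PCDH17 are in the brain set.

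Gut, lung and skin, the organs with a surface epithelium, were set against each other in pairs in the model of the 6 organ means, and the 3 comparisons share samples. Gut against skin gave 4 members higher (CLDN1, OCLN, PKP2 and PCDH17) where 3.94% of all genes were, and 3 lower (GJB5, CDH26 and CDH15) where 4.93% were. GJB5 was lower in gut by -4.79 ± 0.64 (adjusted p = 0.000382, limma). CDH15, counted in the comparisons of gut and of lung with skin, had passed the filter through skin only. Lung against skin gave 4 higher (OCLN, CLDN5, CLDN11 and PCDH10) where 2.99% were, and 9 lower (CDH1, CDH13, CDH15, CDH26, CLDN7, DSC2, JUP, PKP2 and GJB5) where 5.93% were. Lung against gut gave 1 higher (CLDN5) where 2.68% were, and 7 lower (CLDN1, CLDN7, OCLN, CDH1, DSC2, JUP and PKP2) where 4.88% were. CDH1, CLDN7, DSC2, JUP and PKP2 were lower in lung in both of its comparisons, DSC2 under every one of the 25 alternatives. Against skin, JUP passed in 12 of the 25 and was lost without either brain or gut sample, any lung sample, p5 liver or p4 skin (adjusted p up to 0.412, limma), and CLDN11 passed in 13 and was lost without either brain or skin sample, any lung sample, p4 liver or p6 liver (up to 0.231 without 1 sample, limma). Against gut, CDH1 passed in 19 and was lost without either gut sample, p4 lung or p6 lung (up to 0.16, limma).

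Of the 7 desmosome genes, DSC2, JUP and PKP2 were called in both lung comparisons, and DSG1, DSG2, PKP3 and PKP4 in neither. DSC2 was lower in lung than in gut by -3.83 ± 0.45 (adjusted p = 0.000173, limma) and lower than in skin by -2.62 ± 0.45 (adjusted p = 0.00245, limma). PKP2 stood at 4.84, 12.8 and 9.44 in lung, and was lower than in gut by -4.13 ± 0.48 (adjusted p = 0.000173, limma) and than in skin by -1.86 ± 0.48 (adjusted p = 0.0302, limma), the second lost with the animal as a block by the study's sample list and without p4 or p6 lung or p4 skin. CLDN5 ran the other way, 17.8, 24.0 and 20.7 in lung, against 7.69 and 2.43 in gut (1.99 ± 0.46, adjusted p = 0.0181) and 1.69 and 6.46 in skin (2.28 ± 0.46, adjusted p = 0.00672, both limma). CDH5 was likewise higher in lung than in gut, by 1.92 ± 0.42 (adjusted p = 0.013), and than in skin, by 2.87 ± 0.42 (adjusted p = 0.000797, both limma). On the deposited TPM the lung counts were 2 higher and 11 lower against skin, where 211 and 2444 of all 16317 genes were. Against gut they were 0 higher and 11 lower, where 203 and 1919 of all genes were. The 2 CLDN5 calls were lost.

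These counts moved when samples were left out. Fewer members were called between gut and skin without p6 skin. The same held between lung and skin without p4 skin, and between lung and gut without p4 gut. Leaving out p5 and p6 lung gave fewer calls against skin and against gut. In each of these cases fewer of all genes were called as well, so that the losses cannot be read as particular to these members.

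Against all other samples, lung had 0 members called (limma, where 0.821% of all genes were higher and 0.0429% lower). At an unadjusted p under 0.05, CLDN9 was higher and DSC2, JUP and PKP2 lower, with no share of all genes beside them. In the model of the 6 organ means 7 members were lower in lung, DSC2, JUP, PKP2, CDH10, PCDH1, PCDH7 and PCDHGC5, where 3.6% of all genes were, and 0 were higher, where 2.67% were. Of these, CDH10, PCDH1 and PCDHGC5 are in the brain set, and brain is part of the mean that lung was set against. The lung values of CDH10, PCDH1, PCDH7 and PCDHGC5 overlapped those of skin, and those of CDH10 were all below 1. CLDN3, a barrier claudin of gut and lung epithelia in mammals, was low throughout, at 0.569, 1.27 and 1.80 in lung and at most 2.77 in any sample.

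**Figure D5:**
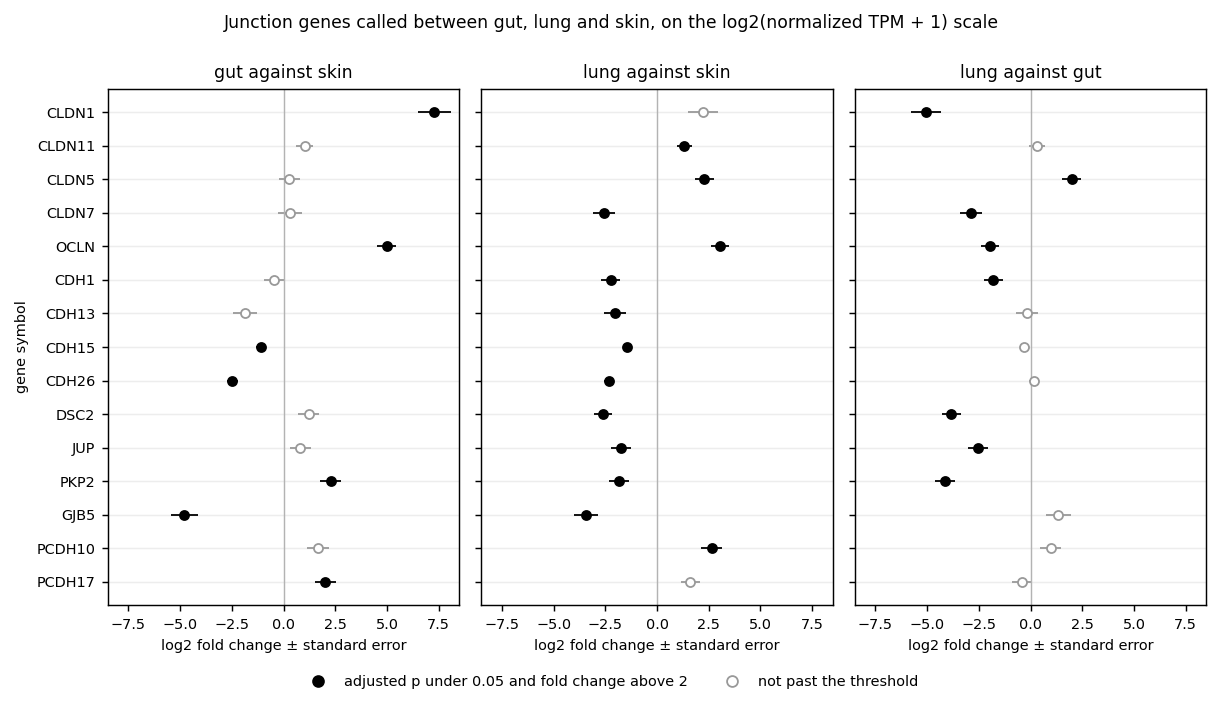
Log2 fold change with its standard error for the 15 members called in at least 1 of the comparisons gut against skin, lung against skin and lung against gut. Filled points passed an adjusted p of 0.05 and a fold change of 2. DSC2, JUP, PKP2, CLDN7 and CDH1 lie left of 0 in both lung comparisons, and OCLN lies right of 0 in both comparisons with skin.

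Partner genes that act at these junctions were listed as well. Of 61 listed, 26 had a row past the filter, 12 differed among the 6 organs (limma F-test, 34.2% of all genes), and 5 were higher in brain (11.2% of all genes) and 0 in any other organ against all other samples. PRKCI, a polarity kinase at tight junctions, was 19.1 and 6.41 in brain, against at most 2.99 elsewhere (2.56 ± 0.41, adjusted p = 0.000452, limma). CTNND2, a neuronal delta-catenin that binds classical cadherins, was 72.4 and 49.9 in brain, against at most 32.3 elsewhere (2.51 ± 0.67, adjusted p = 0.0181, limma). PTPRU, MPP5 and PANX1 completed the 5. CTNNA1, the alpha-catenin that links cadherins to actin, was lower in lung, at 49.0, 42.1 and 46.1, than in gut, at 197 and 175 (-2.00 ± 0.39, adjusted p = 0.00685), and than in skin, at 188 and 102 (-1.58 ± 0.39, adjusted p = 0.0226, both limma). F11R, the junctional adhesion molecule A, was lower in lung than in gut and in skin as well, in parallel with CDH1 and the desmosome genes.

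Of 35 symbols set for description whatever their values, 10 matched no row and were not analysed here: CDH17, EPCAM, CLDN4, CLDN10, CLDN18, DSP, PKP1, GJA1, GJA5 and GJB2. The desmoplakin and the main connexins of heart and skin in mammals are among them, so that the desmosome and connexin sums leave those genes out. TJP3 and GJD2 matched a row below the filter, with at most 0.865 and 0.297 in any sample.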

How the data were processed

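Poly(A)-selected directional libraries of 14 organ samples were sequenced by the authors, who trimmed reads with cutadapt and Trimmomatic, mapped them with BWA to a de novo assembly reduced to 1 transcript, the longest, per annotated gene, and counted with featureCounts; strand setting and handling of reads shared by several rows are not given in the sources used here. The deposited table holds TPM, which keep no depth, so no counting error is given. Each sample's TPM were divided by its median ratio over 13067 genes above 0 in every sample. log2(value + 1) of the 16317 genes that reached a TPM of 1 in 2 or more samples was fitted with limma 3.58.1 (R 4.3.3), moderated variances with a trend, Benjamini-Hochberg adjustment over all genes tested, and called at an adjusted p under 0.05 and a fold change above 2. The pseudocount makes fold changes of low genes too small. The scripts were tested on simulated data.

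Each organ was tested against all other samples as 1 group, as in the study. The 6 organ means were compared by an F-test and by contrasts between 2 organs, without matching samples by animal. As an alternative, each organ mean was set against the mean of the other 5. These comparisons share samples. In the model of the 6 organ means, p-values measure the spread among 2 or 3 animals an organ. Against all other samples as 1 group, the spread also includes the differences among the other 5 organs. Organs of the same animal by title deviated together (28 pairs, mean correlation 0.156, 19 of them over 0.1, against -0.083 over 53 pairs of different animals), so the animal was used as a block in an alternative.

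Members and lists were chosen with earlier results of these data known. Named were, by rule, the 5 members most raised and the 3 most lowered in each organ, the 3 most abundant in each class, 35 fixed symbols, and the 2 partners most raised; other members are named where they complete a count. Other alternatives were a pseudocount of 0.1 or 5, other filters, deposited TPM, quantile normalization, rows summed by symbol, and samples left out. Some members are not reported here by name, though they stay in the counts and sums.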

Additional observations from a re-analysis of the deposited data

How the results depend on the processing

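Over the alternatives in which the gene was tested, 62 of 114 single-gene calls passed the threshold each time and 0 reversed. Genes that fell below the filter in an alternative were not tested there. PCDHA1 in brain was thus tested in 23 alternatives, against 26 for CDH10. The F-test count of 32 stayed within 1.5 times. Leaving out 1 sample gave 6 to 18 calls in brain against all other samples (17 with all samples), 0 to 1 each in gut and heart, 0 to 2 in liver and 1 to 5 in skin, and 4 to 9 for gut against skin, 6 to 15 for lung against skin and 5 to 9 for lung against gut. Over all genes the calls moved with the sample left out as well, so that these ranges cannot be read as particular to these members. Leaving out p6 brain and p6 heart together gave fewer calls in brain and 1 in liver. Leaving out p5 and p6 lung together gave fewer for lung against skin and lung against gut. In each case fewer of all genes were called too. Against the mean of the other 5 organs, gut had 11 members called, heart had 10, liver 13, lung 7 and skin 14. With a pseudocount of 5, 0 were called in liver and 1 in skin. Of all genes, 292 were then higher and 4 lower in liver, against 373 and 10 as reported, and 287 and 4 in skin, against 317 and 11. In liver, 1 was called with a mean TPM filter, 0 on the deposited TPM, 1 with quantile normalization and 1 with the animal as a replicate block by title or by the study's list. Of all genes, 359, 178, 367, 368 and 337 were higher in liver under these 5 settings, in that order. Beyond the blocked losses given above (CLDN19, GJB1, OCLN, PKP2), the block by title ended the gut against skin call of PCDH17 and both blocks the F-test call of the second TJP1 row, and no other named call was lost. The blocks by title and by the study's list also added calls, giving 35 and 37 members in the F-test, 7 and 9 for gut against skin, 15 and 13 for lung against skin, and 9 and 9 for lung against gut. The F-test then called 6346 and 5885 of all genes, against 5580 without a block. Over all genes, gut against skin gave 655 higher and 789 lower by title and 705 and 836 by list, against 643 and 805. Lung against skin gave 549 and 1047, then 477 and 966, against 488 and 967. Lung against gut gave 565 and 921, then 422 and 817, against 437 and 796. The cause of these changes was not tested. Over all genes, 57.1% of the lung calls against all other samples were higher on the deposited TPM, against 95% with normalized TPM, with 7.95% against 33.5% for lung against skin and 9.57% against 35.4% for lung against gut. With 2 or 3 samples an organ and TPM that keep no depth, levels near 1 TPM carry an unknown counting error.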
